A study of Arabidopsis thaliana with 22 samples.

Results

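The xyloglucan endotransglucosylase/hydrolases (XTH) of Arabidopsis thaliana were taken by locus identifier as the 33 genes XTH1 to XTH33, and all 33 symbols matched the RefSeq annotation. Of these, 30 have a row among the 25680 loci of the expression table, and XTH1, XTH2 and XTH21 are not analysed here. Counts of 24 members were high enough to be tested. The other 6 (XTH3, XTH12, XTH13, XTH14, XTH17 and XTH26) are described by their counts.

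XTH enzymes act on xyloglucan, the glucan that ties cellulose microfibrils together in the primary wall of flowering plants. Most members cut a xyloglucan chain and rejoin it to another chain, so that the wall can loosen, grow or be repaired, while XTH31 and XTH32 belong to a subgroup with hydrolytic activity. Transcripts of single members are known to follow touch, hormones, senescence and cell type, and XTH22 was first described as the touch gene TCH4.

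The study measured polyadenylated RNA of mature leaves from the wild type (WT) and from 4 T-DNA insertion mutants of photorespiration, the route that recovers carbon from the phosphoglycolate made when Rubisco binds oxygen. The disrupted genes encode the hydroxypyruvate reductase of peroxisomes (hpr1, allele hpr1-1), mitochondrial serine hydroxymethyltransferase (shm1, allele shm1-2), glycerate kinase (glyk1, allele glyk1-1) and phosphoglycolate phosphatase (pglp1, allele pglp1-1). All plants grew in air with 1% CO2 (HC), and the low CO2 (LC) groups were then kept at 0.038% CO2 from the end of a night. Both the HC and the LC groups were sampled 8 h into the light. Each of the 10 groups has 3 libraries in WT and 2 in a mutant, 22 in all. The submitters call the replicates biological, and nothing says whether a library is a plant or a pool, or whether libraries shared a growth batch or a sequencing mode. All comparisons with WT at one CO2 level share the same WT libraries.

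The coding bases around the catalytic residues show what the family shares and where the members described here differ. The 9 codons are read from the TAIR10.1 coding sequence, 5′ to 3′, with the codons of the paired glutamates in capitals.
XTH22: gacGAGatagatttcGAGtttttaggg
XTH18: gatGAGattgatttcGAGttcttagga
XTH19: gatGAGattgatttcGAGtttttgggg
XTH23: gacGAGattgactttGAGttcttggga
XTH24: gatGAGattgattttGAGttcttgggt
XTH30: gacGAGttagacataGAGtttctaggg
XTH31: gatGAGgtcgatatcGAGtttctaggg
XTH32: gatGAGgtagacataGAAtttttgggg
The pattern was found in 32 of the 33 members and not in XTH11. The codon before the later glutamate was ttt or ttc in 27 of them and ata, atc in the remaining 5, which are XTH29 to XTH33. As the values below show, that codon did not sort the members by response, since XTH29 and XTH30 rose in LC in all mutants and XTH31 and XTH32 fell.

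Depth differed widely: shm1 LC replicate 1 held 194.46 M counts (M for 1e6) and the shallowest library, replicate 1 of hpr1 in LC, 5.91 M, so the same CPM (counts per 1e6, TMM-normalised) rests on more counts in some libraries than in others. Each of the 4 targeted genes lay, in all 4 libraries of its own mutant, below all 6 WT libraries; PGLP1 has a near-identical copy in the genome, so its counts are uncertain. In WT LC replicate 3, XTH3, XTH11, XTH16 and XTH31 lie in a block of rows where counts of neighbouring loci were found, so that library is set to missing for them. The 3 leaf mesophyll markers, among them the small subunit of Rubisco, were high in every group, with summed levels of 34379 to 58227 CPM in WT HC. The WT LC libraries were further apart, from 14374 to 60232 CPM. The markers were lowest in shm1 LC, at 2450.2 to 4426 CPM. In bulk leaf RNA, fewer cells of a type and less RNA per cell cannot be told apart.

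**Figure D1:**
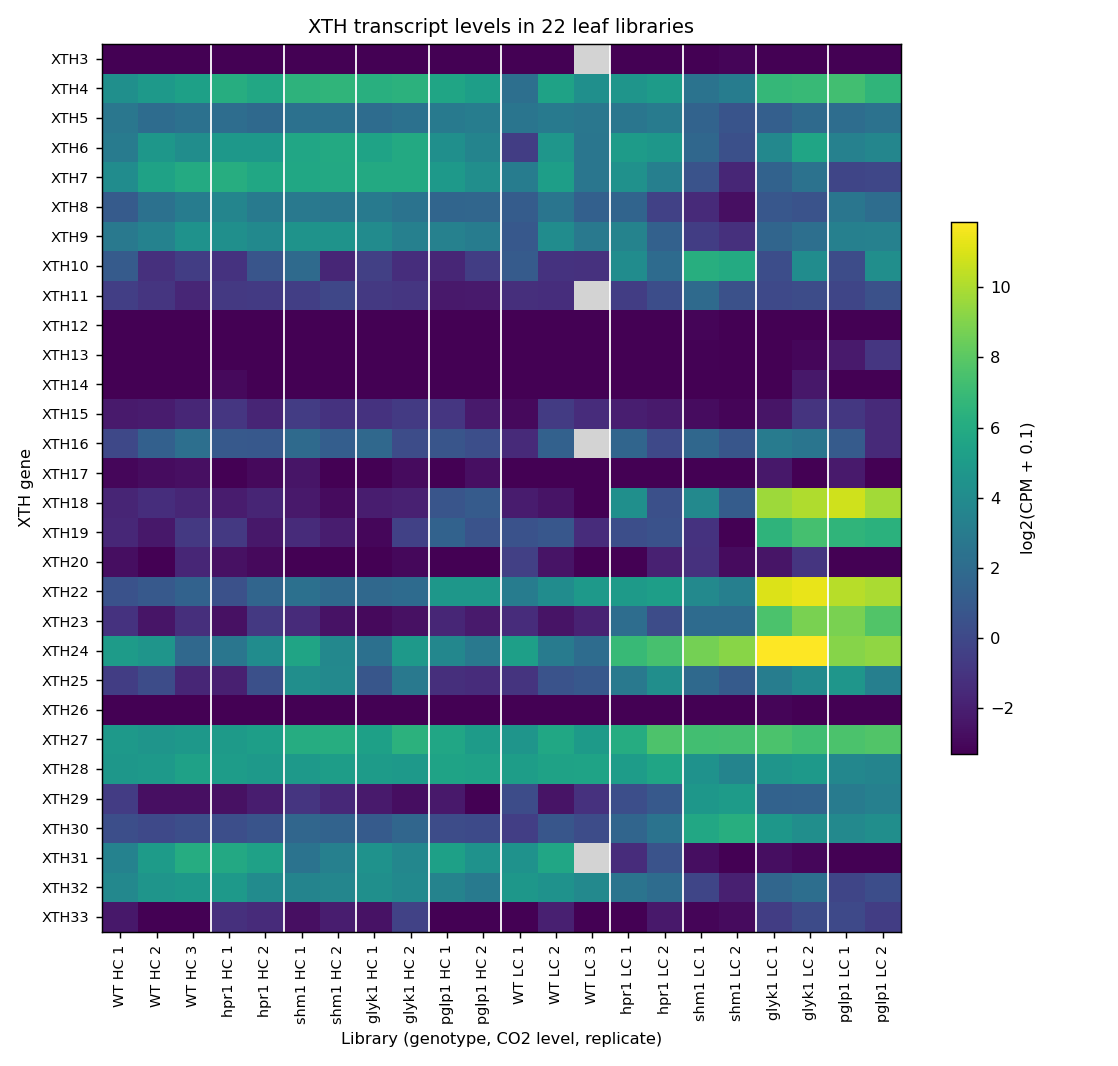
Heat map of 30 XTH genes (rows) in 22 libraries (columns, white lines between groups), as log2(CPM + 0.1), with grey for the missing values of WT LC replicate 3. XTH18, XTH19, XTH22 and XTH23 are brightest in the glyk1 and pglp1 LC libraries, and XTH31 is dark in the LC libraries of all 4 mutants.

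Levels of different members were compared by the deposited RPKM (reads per kilobase and per 1e6 reads), which corrects for transcript length. In WT HC the highest mean levels were 38.2 ± 19.6 RPKM for XTH7 (AT4G37800), 30.6 ± 22.5 for XTH31 (AT3G44990), 26.3 ± 7.82 for XTH4 (AT2G06850), 25.8 ± 5.48 for XTH28 (AT1G14720) and 20.9 ± 3.66 for XTH27 (AT2G01850) (SD, n = 3). These neighbours in the order do not differ beyond their spread. XTH24 (18.8 ± 14.8 RPKM), XTH32 (18.1 ± 5.24), XTH6 (16.5 ± 8.34) and XTH9 (12.6 ± 6.54) followed, and the other members stood below 5 RPKM. XTH22 stood at 1.95 ± 0.567 RPKM and XTH18 at 0.248 ± 0.0474 RPKM.

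The make-up of the family changed in LC. Over the 26 members with a value in every library, the summed RPKM was 158 to 221 in WT HC and 142 to 252 in WT LC. It was 389 and 507 in hpr1 LC, 599 and 670.2 in shm1 LC, 2881 and 2168 in pglp1 LC, and 5086 and 6510.1 in glyk1 LC. XTH18, XTH19, XTH22, XTH23 and XTH24 together made up 95.4% and 95.6% of that sum in glyk1 LC and 91.7% and 88.9% in pglp1 LC. Their share was 2.9% to 21.8% in WT HC and 10.4% to 32.1% in WT LC. In glyk1 LC the leading member was XTH24, with 48.6% and 41.5% of the sum. In shm1 LC it was XTH24 again, with 53.9% and 63.2%, and in pglp1 LC XTH18 (40.9%) led in replicate 1 and XTH22 (32%) in replicate 2. The RPKM values as deposited carry no TMM scaling, and 4 members with a missing value, XTH31 among them, are outside these sums.

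**Figure D2:**
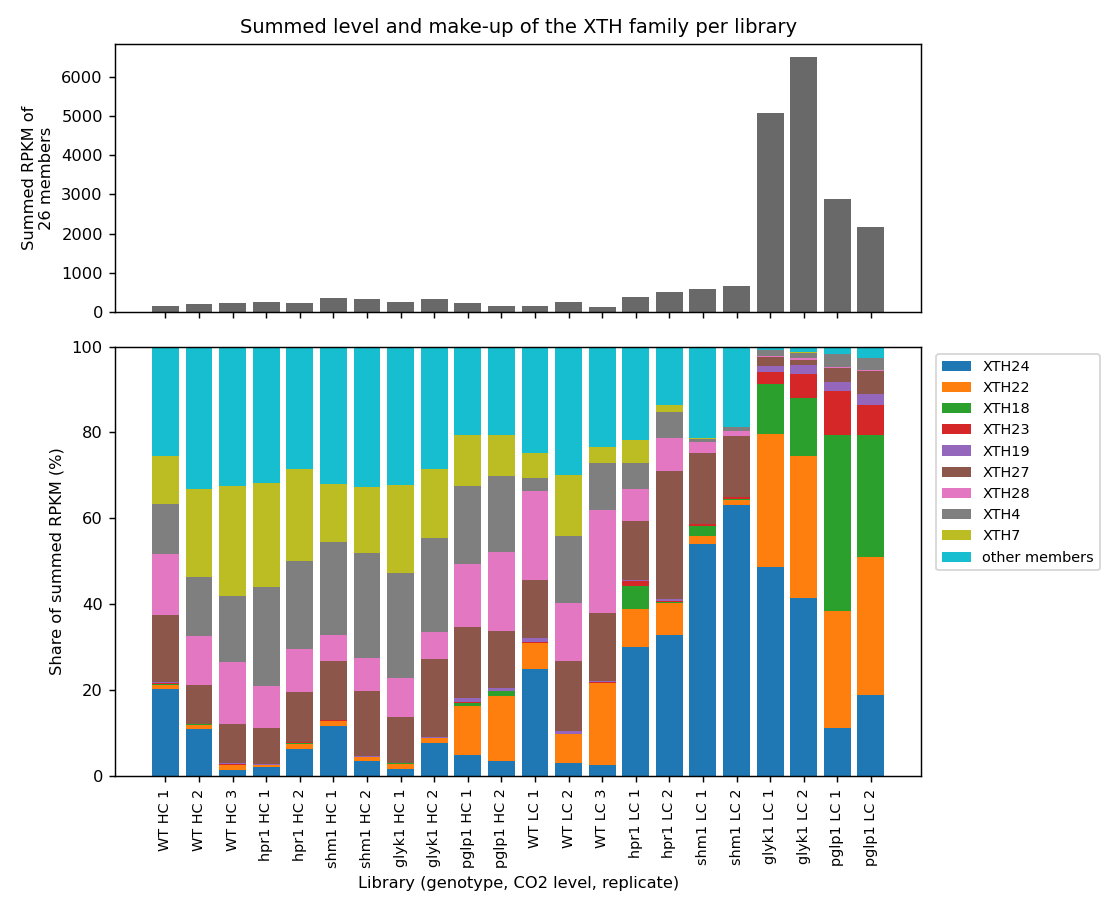
Upper panel, summed deposited RPKM of 26 XTH members per library; lower panel, the share of each member in that sum, in percent. The sum lies at or below 252 in the WT libraries and reaches 6510.1 in glyk1 LC replicate 2, where XTH24, XTH22 and XTH18 fill most of the bar.

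The LC shift in WT addresses what low CO2 does to leaves with intact photorespiration. A single member, XTH22 (AT5G57560), passed the test (adjusted p under 0.05): 1 of 24 higher against 0.00489% of all loci tested, none lower against 0.0147% of loci, and 0.0196% of loci in either direction. XTH22 stood at 1.32, 1.78 and 2.66 CPM in WT HC and at 8.12, 16.5 and 29 CPM in WT LC. All LC libraries lay above all HC libraries, and the log2 fold change was 3.25 (SE 0.43, adjusted p = 0.00731). XTH22 was itself the only locus called higher among the 20433 tested. The call was lost without WT HC replicate 1 (adjusted p = 0.0589) or replicate 2 (0.124). With only these groups fitted none of 18469 loci passed (0.999 for XTH22), and the log2 fold change of XTH22 was 3.24. The median log2 fold change was −0.08 over the members and −0.01 over all loci.

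In HC, XTH22 in pglp1 was the single call among the mutants. No member passed edgeR's test in hpr1, shm1 or glyk1, where 0.00489%, 0.0147% and 0.00489% of loci passed. With an unadjusted p under 0.05 there were 1, 7 and 7 members, against 2.67%, 9.77% and 10.8% of loci. DESeq2 called 0, 2 and 2 members, against 7, 151 and 309 of 20286 loci. In pglp1 HC, XTH22 alone was called of 24, against 4.12% of loci (2.44% higher and 1.68% lower). DESeq2 called 2 members there, against 1988 of 20286 loci. XTH22 stood at 26.5 and 26.8 CPM there, above every HC library of the other genotypes (1.29 to 4.84 CPM), a log2 difference from WT of 3.83 (SE 0.46, adjusted p = 0.000564). That level lies within the range of WT LC. XTH18 (1.5 to 1.99 CPM) and XTH19 (1.36 to 2.69 CPM) in pglp1 HC also stood above all other HC libraries, without a call. The HC libraries of the other genotypes reached at most 0.295 CPM for XTH18 and 0.68 CPM for XTH19. XTH25 (AT5G57550, first named XTR3) was at 18.5 and 14.1 CPM in shm1 HC against 0.213 to 1.08 CPM in WT HC, without overlap, but did not pass the adjustment (log2 difference 4.6, SE 0.83, adjusted p = 0.103).

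In LC the mutants departed from WT. In shm1, 9 members rose against HC (31.9% of loci) and 11 fell (33.4%), 20 of 24 in all (65.3% of loci). In glyk1, 9 rose (27.1% of loci) and 4 fell (27.5%), 13 in all (54.6%). In pglp1, 13 rose (24.3% of loci) and 5 fell (32.3%), 18 in all (56.6%). The median log2 change of the members was −0.64 in shm1, 1.3 in glyk1 and 1.94 in pglp1, against −0.05, −0.06 and −0.25 over all loci. With 0-count groups set to their bounds the median in pglp1 was 2.3. More than 50% of all loci were called in each of these mutants. The total of members lies near that share in glyk1 and above it in shm1 and pglp1. The size and direction of single members carry the description below.

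Some of these calls from HC to LC were lost in refits, most often when a library was left out. In pglp1, XTH5 (−0.81) lost its call in all 10 refits (adjusted p from 0.0536 to 0.399). XTH4 (1.59) lost it without pglp1 HC replicate 1 (0.0875), HC replicate 2 (0.129) or LC replicate 1 (0.117), and XTH33 without the same libraries (0.0736, 0.122 and 0.0624). XTH10 (4.52) lost it without pglp1 HC replicate 1 (0.156), HC replicate 2 (0.129) or LC replicate 2 (0.633). In glyk1, XTH10 (4.22) lost it without glyk1 HC replicate 1 (0.095), HC replicate 2 (0.147) or LC replicate 2 (0.549). There XTH8 (−2.08) lost it without glyk1 HC replicate 1 (0.101), LC replicate 1 (0.0726) or LC replicate 2 (0.11), and XTH27 (1.45) without HC replicate 1 (0.125) or LC replicate 1 (0.0817). In shm1, XTH28 (−0.96), XTH10 (5.08) and XTH24 (4.03) lost it without shm1 HC replicate 2 (0.0604, 0.0767 and 0.0728). XTH28 (0.216) and XTH5 (0.0886) lost it there without LC replicate 2, and XTH11 (1.79) without HC replicate 1 (0.0701) or LC replicate 1 (0.19).

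In hpr1, 8 members rose against HC (8.33% of loci) and 3 fell (6.9%), 11 in all (15.2%). The members that rose were XTH18, XTH22, XTH23, XTH24, XTH25, XTH27, XTH29 and XTH30, and those that fell were XTH8, XTH31 and XTH32. Without hpr1 HC replicate 1, hpr1 HC replicate 2 or hpr1 LC replicate 2 fewer members were called, and fewer of all loci as well. Each of these fits leaves 1 library in the group. Each of the 11 calls was lost without hpr1 HC replicate 1. The median log2 change was 0.87 over the members and 0 over all loci.

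Against WT in LC, 5 members were higher in hpr1 (2.02% of loci) and 2 lower (0.803%), 7 in all (2.82%). That count was 4 without WT LC replicate 2 or replicate 3, where 378 of 20537 and 418 of 20423 loci passed. It was also lower without either hpr1 LC library, which leaves 1 library in that group. With only these groups fitted it was 0, as no locus passed. With the replicate block or with all rows as deposited it was 3, where 329 of 20433 and 360 of 20494 loci passed. The calls of XTH23 (log2 difference 3.41, SE 0.87, adjusted p = 0.0479) and XTH25 (3.54, SE 0.83, adjusted p = 0.0361) were the least stable: that of XTH23 was lost without any of the WT LC libraries or hpr1 LC replicate 1 (adjusted p from 0.0547 to 0.231), and that of XTH25 without any of these 5 libraries (0.0514 to 0.221). In shm1, 8 were higher (31.3% of loci) and 9 lower (35.1%), 17 in all (66.4%). In glyk1, 13 were higher (27% of loci) and 4 lower (29.1%), 17 in all (56.1%). In pglp1, 13 were higher (26.1% of loci) and 4 lower (34.5%), 17 in all (60.6%). Higher in each of shm1, glyk1 and pglp1 were XTH10, XTH11, XTH18, XTH23, XTH24, XTH27, XTH29 and XTH30, and lower in each were XTH7, XTH31 and XTH32. These comparisons share the WT libraries. The share of all loci called in all 3 was not computed, so the extent of this overlap cannot be judged.

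The difference between a mutant's LC response and that of WT was tested as an interaction. It passed for 19 members in shm1, with 7 higher (25.6% of loci) and 12 lower (28.3%), against 53.9% of loci in either direction. It passed for 9 in glyk1, with 7 higher (20% of loci) and 2 lower (19.3%), against 39.3%, and for 14 in pglp1, with 9 higher (18.4% of loci) and 5 lower (25.1%), against 43.6%. In hpr1 no member passed edgeR's test (0.093% of loci did). An unadjusted p under 0.05 was found for 10 members, against 12.1% of loci, and DESeq2 called 3, against 348 of 20286 loci. By edgeR, 1 member was called there without WT HC replicate 3 (32 of 20474 loci passed) or WT LC replicate 1 (180 of 20545).

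**Figure D3:**
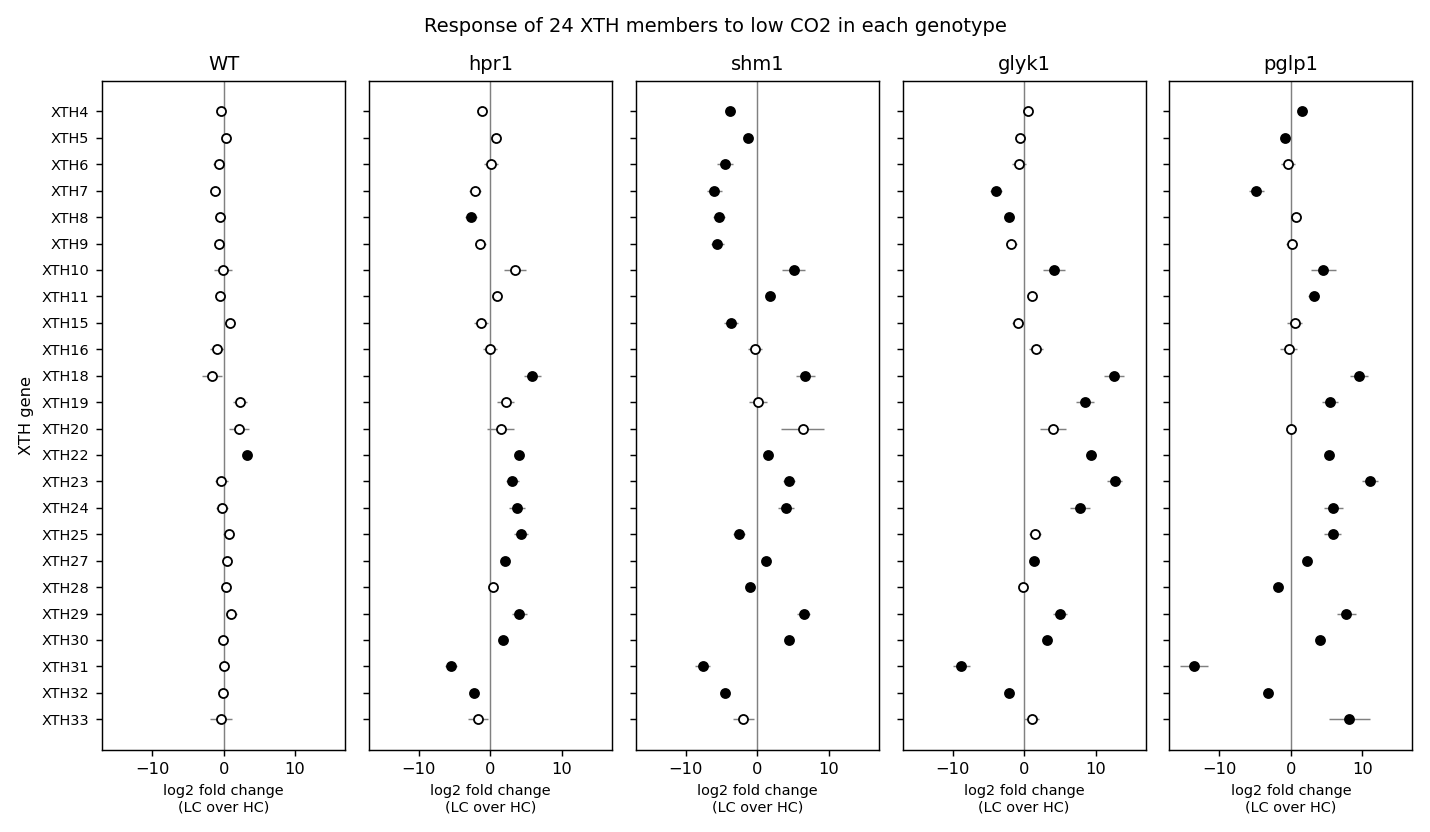
Log2 fold change of LC over HC (horizontal axis, with SE) for the 24 tested XTH genes in each genotype; filled points have an adjusted p under 0.05. XTH22 is the filled point in WT, and XTH18, XTH22 and XTH23 reach 12.61, 9.36 and 12.67 in glyk1.

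XTH22 is the touch gene of the family and was called from HC to LC in all 5 genotypes, though in shm1 (1.48, SE 0.49, adjusted p = 0.0144) the call was lost without shm1 HC replicate 2 (0.105) or shm1 LC replicate 1 (0.0909). It stood at 2127 and 2646 CPM in glyk1 LC, a mean of 1106 CPM in pglp1 LC (SD 150.4, n = 2, the higher library at 1213 CPM), 30.9 and 36.3 CPM in hpr1 LC and 14 and 9.48 CPM in shm1 LC. The glyk1 and pglp1 LC libraries lay above every other library, while those of shm1 LC lay within the range of WT LC. Against WT in LC the log2 difference was 7.06 in glyk1 (SE 0.51, adjusted p = 6.21e-08) and 5.96 in pglp1 (SE 0.49, adjusted p = 1.19e-07), with no overlap. The LC response differed from that of WT by 6.11 in glyk1 (SE 0.67, adjusted p = 1.18e-05) and by 2.12 in pglp1 (SE 0.63, adjusted p = 0.0126). In shm1 it was smaller than in WT, by −1.77 (SE 0.63, adjusted p = 0.0267). That call was lost without WT HC replicate 1, shm1 HC replicate 1, WT LC replicate 3 or shm1 LC replicate 2, with adjusted p up to 0.149.

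XTH18 (AT4G30280) and XTH19 (AT4G30290), which are known from roots, had almost no transcript in leaves of WT. XTH18 lay between 0 and 0.295 CPM in the 6 WT libraries. In WT LC it had 5 counts over 3 libraries, so the size of its differences from WT LC is uncertain. It stood at 795 and 1061 CPM in glyk1 LC, 1775 and 876 CPM in pglp1 LC, 14.4 and 2.07 CPM in shm1 LC and 18.6 and 1.22 CPM in hpr1 LC. All mutant LC libraries lay above all WT libraries, with log2 differences from WT LC of 13.48 in glyk1 (SE 1.29, adjusted p = 8.36e-07), 14 in pglp1 (SE 1.3, adjusted p = 4.07e-07), 6.67 in shm1 (SE 1.17, adjusted p = 0.000143) and 6.84 in hpr1 (SE 1.2, adjusted p = 0.00851). The hpr1 call was lost without hpr1 LC replicate 1 (adjusted p = 0.0939).

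XTH19 stood at 93.1 and 165 CPM in glyk1 LC and at 97.3 and 83.7 CPM in pglp1 LC, against 0.288 to 1.66 CPM in WT LC. In shm1 LC it stood at 0.372 and 0 CPM, which overlaps WT LC. The difference from shm1 LC was 9.14 in glyk1 (SE 1.27, adjusted p = 8.98e-05) and 8.63 in pglp1 (SE 1.25, adjusted p = 3.84e-05), on the log2 scale. The members XTH17 and XTH20, known from roots as well, stayed at or under 0.116 and 0.637 CPM in every library. Of the root markers in the table, COBL9, a gene of root hairs, was at 0 in all LC groups. The summed root markers were 3.44 to 6.24 CPM in pglp1 LC, 0.404 to 1.93 CPM in glyk1 LC and 0.014 to 4.04 CPM in WT HC. For WT LC no such sum is given, as PYK10 lacks replicate 3 there. PYK10 was the only root marker tested. Its log2 difference from WT LC was −1.47 in pglp1, −3.52 in glyk1, −6.16 in shm1 and −2.53 in hpr1, called in shm1 only. The part of these markers in the result was not tested.

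XTH23 (AT4G25810, first named XTR6) lay between 0.0329 and 0.467 CPM in all HC libraries and between 0.0753 and 0.287 CPM in WT LC. It stood at 193 and 449 CPM in glyk1 LC, 456 and 218 CPM in pglp1 LC, 3.95 and 3.94 CPM in shm1 LC and 4.18 and 1.06 CPM in hpr1 LC. The groups formed a series without overlap between WT, the hpr1 and shm1 pair, and the glyk1 and pglp1 pair. The LC response exceeded that of WT by 12.99 in glyk1 (SE 1.28, adjusted p = 5.47e-06), 11.42 in pglp1 (SE 1.34, adjusted p = 1.48e-05) and 4.77 in shm1 (SE 1.23, adjusted p = 0.00446), on the log2 scale.

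XTH24 (AT4G30270), known as MERI5 and as the senescence gene SEN4, varied widely within WT, from 3.35 to 32.2 CPM in HC and from 4.09 to 38 CPM in LC. It reached 3763 and 3754 CPM in glyk1 LC, 551 and 665 CPM in pglp1 LC, 414 and 576 CPM in shm1 LC and 121 and 178 CPM in hpr1 LC, all above every WT library. The log2 difference from WT LC was 7.8 in glyk1 (SE 1.16, adjusted p = 5.45e-05), 5.17 in pglp1 (SE 1.04, adjusted p = 0.00054) and 4.88 in shm1 (SE 1.03, adjusted p = 0.000682). It did not pass in hpr1. Between glyk1 and shm1 LC the difference of 2.92 (SE 1.11, adjusted p = 0.0493) was lost on leaving out any of those libraries, with adjusted p from 0.114 to 0.188.

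**Figure D4:**
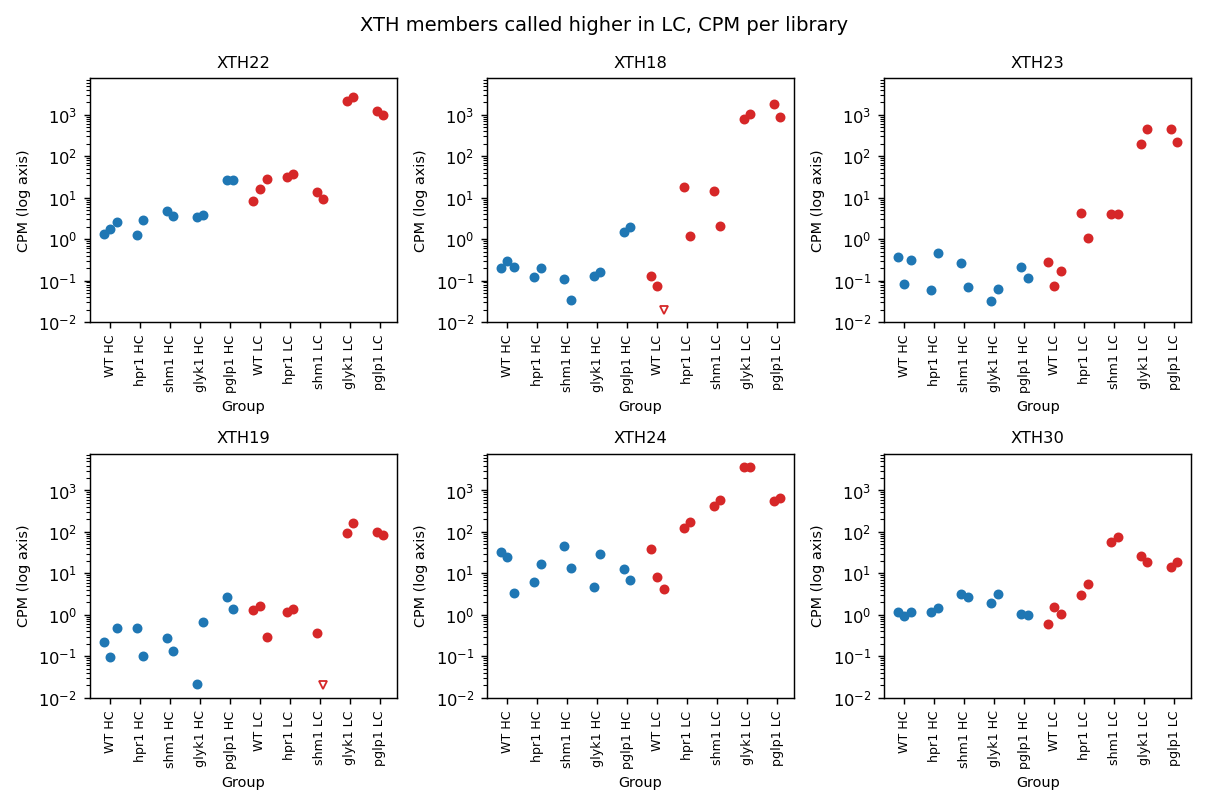
CPM per library (points, log axis) by group for 6 XTH genes, HC in blue and LC in red; open triangles mark libraries below the axis floor of 0.02 CPM or at 0. The glyk1 and pglp1 LC libraries stand highest for XTH22, XTH18, XTH23 and XTH19, and the shm1 LC libraries for XTH30.

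Several of these genes are neighbours in the TAIR10.1 genome. XTH24, XTH18 and XTH19 lie in that order on the minus strand of chromosome 4, with 5161 and 1500 bases between the genes, and all rose in glyk1 and pglp1. XTH23 lies on chromosome 4 only 363 bases before XTH14 (AT4G25820) on the same strand, and XTH14 had 5 counts in one glyk1 LC library, 1 count in one hpr1 HC library and 0 in the rest. XTH22 and XTH25 are 565 bases apart on chromosome 5, and next to them XTH13 (AT5G57540) and XTH12 (AT5G57530) had at most 5 and 3 counts in any library. XTH26 (AT4G28850) had 1 count in all and XTH3 (AT3G25050) 1 count. No window of 100 bases was shared between transcripts of different members, so a read of that length from one member had no identical place in another.

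XTH30, XTH29 and XTH10 were highest in shm1 LC. XTH30 (AT1G32170) stood at 55.8 and 75 CPM in shm1 LC, 25.9 and 18.4 CPM in glyk1 LC, 14.4 and 18.5 CPM in pglp1 LC and 3.03 and 5.43 CPM in hpr1 LC. WT lay between 0.605 and 1.58 CPM at both CO2 levels, below all of these. The log2 difference from WT LC was 5.99 in shm1 (SE 0.37, adjusted p = 2.20e-08), 4.43 in glyk1 (SE 0.35, adjusted p = 1.44e-07), 4 in pglp1 (SE 0.35, adjusted p = 2.25e-07) and 2.1 in hpr1 (SE 0.35, adjusted p = 0.00705). The hpr1 call was lost without hpr1 LC replicate 2 (adjusted p = 0.0935). Shm1 LC lay above glyk1 LC by 1.56 (fold change of glyk1 over shm1 −1.56, SE 0.34, adjusted p = 0.00252) and above pglp1 LC by 1.99 (−1.99, SE 0.35, adjusted p = 0.000221).

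XTH29 (AT4G18990) stood at 26.8 and 31.7 CPM in shm1 LC, 7.97 and 9.66 CPM in pglp1 LC and 2.68 and 2.75 CPM in glyk1 LC, against 0.0753 to 1.05 CPM in WT LC. The 3 mutant groups did not overlap each other or WT. The log2 difference from WT LC was 5.71 in shm1 (SE 0.77, adjusted p = 1.27e-05). XTH10 (AT2G14620) stood at 73.7 and 63.8 CPM in shm1 LC, against 0.345 to 1.94 CPM in WT LC (6.13, SE 1.4, adjusted p = 0.00128). The call of XTH29 in glyk1 (2.29, SE 0.73, adjusted p = 0.015) was lost without glyk1 LC replicate 1 (0.0545). For XTH10 in glyk1 and pglp1 LC the replicates were far apart, at 1.09 and 16.5 CPM and at 1.04 and 18.5 CPM, and overlapped WT. Those XTH10 calls (log2 differences 3.16 and 3.33, adjusted p = 0.0491 and 0.0399) were lost without glyk1 LC replicate 2 (0.942) or pglp1 LC replicate 2 (0.943), and without WT LC replicate 2 (0.125 and 0.101) or replicate 3 (0.115 and 0.0974).

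XTH27 (AT2G01850, first named EXGT-A3), known from the veins of leaves, was already abundant in WT, at 23.8 to 30.3 CPM in HC and 24.6 to 53.8 CPM in LC. It stood at 156 and 159 CPM in shm1 LC, 193 and 151 CPM in glyk1 LC, 189 and 219.7 CPM in pglp1 LC and 66.9 and 201 CPM in hpr1 LC, above every WT library. The log2 differences from WT LC were 2.11, 2.24, 2.49 and 1.89, with adjusted p = 0.000336, 0.000327, 9.94e-05 and 0.0253. The hpr1 call was lost without WT LC replicate 3 (0.0643) or hpr1 LC replicate 2 (0.345). XTH27 was already at 67.5 and 71.6 CPM in shm1 HC, and its rise from HC to LC there (1.18, SE 0.46, adjusted p = 0.0332) was lost on leaving out any shm1 library (0.0612 to 0.125). The 3 xylem markers summed to 4.87 to 6.61 CPM in shm1 LC and 5.26 to 38.2 CPM in WT LC, and the phloem markers to 342 to 363 CPM and 176 to 335 CPM. Their part in the result was not tested. XTH11 (AT3G48580) stood at 0.319 and 0.301 CPM in WT LC and between 0.809 and 3.68 CPM in shm1, glyk1 and pglp1 LC, with log2 differences of 3, 1.69 and 1.74. The glyk1 and pglp1 calls of XTH11 were lost without WT LC replicate 1 (0.0895 and 0.0901) or replicate 2 (0.073 and 0.0699), and without glyk1 LC replicate 2 (0.069) or pglp1 LC replicate 2 (0.126).

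XTH31 and XTH32, both of the subgroup with hydrolytic activity, were lower in LC in all 4 mutants, both against HC and against WT. XTH31 stood at 10.4, 32.9 and 66.7 CPM in WT HC and at 21.1 and 51.9 CPM in WT LC. It was at 0.0492 and 0 CPM in shm1 LC, 0.0505 and 0.0199 CPM in glyk1 LC, 0 and 0 in pglp1 LC and 0.288 and 1.37 CPM in hpr1 LC. Every mutant LC library lay below every WT library and every HC library.

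With 0 counts in pglp1 LC against 1351 in WT LC, XTH31 was at least 207-fold lower there than in WT LC and at least 191-fold lower than in pglp1 HC, which had 750 counts (bounds from 3 counts over the group, counting error only). The log2 fold change from HC to LC was −8.79 in glyk1 (SE 1.17, adjusted p = 4.36e-05), −7.65 in shm1 (SE 1.09, adjusted p = 4.15e-05) and −5.51 in hpr1 (SE 0.9, adjusted p = 0.00458). The hpr1 call was lost without hpr1 HC replicate 1 (adjusted p = 0.0609), and the difference of hpr1 LC from WT LC (−5.07, SE 0.89, adjusted p = 0.0115) without hpr1 LC replicate 1 (0.0904). The LC response minus that of WT was −8.78 in glyk1 (adjusted p = 0.000242) and −7.65 in shm1 (adjusted p = 0.000224).

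XTH32 (AT2G36870) stood at 13.4, 24.6 and 27.7 CPM in WT HC and 26, 21.5 and 14.4 CPM in WT LC. It was at 0.792 and 0.155 CPM in shm1 LC, 0.809 and 1.09 CPM in pglp1 LC, 3.17 and 4.41 CPM in glyk1 LC and 5.62 and 4.13 CPM in hpr1 LC, all below every WT library. The log2 difference from WT LC was −5.34 in shm1 (SE 0.59, adjusted p = 2.12e-06), −4.42 in pglp1 (SE 0.62, adjusted p = 1.92e-05), −2.45 in glyk1 (SE 0.5, adjusted p = 0.000788) and −2.11 in hpr1 (SE 0.51, adjusted p = 0.0389). The hpr1 call was lost without WT LC replicate 2 (0.0721), hpr1 LC replicate 1 (0.145) or hpr1 LC replicate 2 (0.211).

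XTH7 was the highest member of WT HC in RPKM and ranged in WT from 6.04 to 62.2 CPM. It was at 1.4 and 0.207 CPM in shm1 LC, 0.809 and 0.84 CPM in pglp1 LC and 2.61 and 5.23 CPM in glyk1 LC, below every WT library. The log2 difference from WT LC was −4.31 in shm1 (SE 0.9, adjusted p = 0.000637) and −4.36 in pglp1 (SE 1.03, adjusted p = 0.00191). In glyk1 it was −2.12 (SE 0.8, adjusted p = 0.0349), a call lost without WT LC replicate 2 (0.281), glyk1 LC replicate 1 (0.23) or replicate 2 (0.0646). In hpr1 LC, at 20.2 and 9.17 CPM, XTH7 overlapped WT LC.

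**Figure D5:**
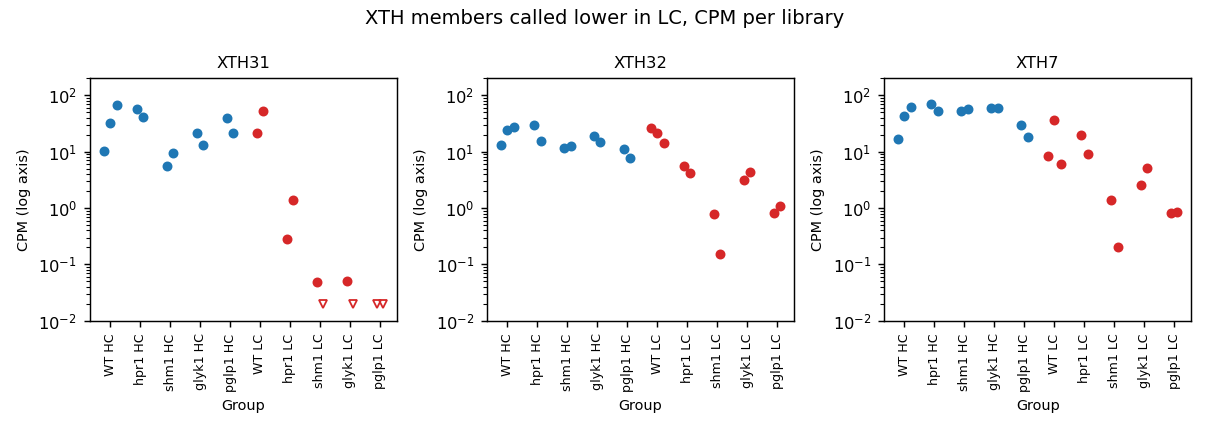
CPM per library (points, log axis) by group for XTH31, XTH32 and XTH7, HC in blue and LC in red; open triangles mark libraries below the axis floor of 0.02 CPM or at 0. The mutant LC libraries stand below all WT libraries for XTH31 and XTH32, and those of shm1, glyk1 and pglp1 do so for XTH7.

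XTH4, XTH8 and XTH9 were lower in shm1 LC than in glyk1 LC and pglp1 LC. XTH4 (first named EXGT-A1) stood at 5.41 and 8.2 CPM in shm1 LC but at 112 and 123 CPM in glyk1 LC and 156 and 99.8 CPM in pglp1 LC, with 4.68, 43.7 and 18.7 CPM in WT LC. It was higher than in WT LC by 2.4 in glyk1 (SE 0.56, adjusted p = 0.00219) and by 2.53 in pglp1 (SE 0.57, adjusted p = 0.00125), on the log2 scale. In shm1 it was lower (−1.71, SE 0.6, adjusted p = 0.0208) with overlap, a call lost without WT LC replicate 2 (0.18) or either shm1 LC library (0.14 and 0.0619). The glyk1 and shm1 LC groups differed by 4.11 (SE 0.7, adjusted p = 0.000418) and the pglp1 and shm1 LC groups by 4.24 (SE 0.7, adjusted p = 0.000125).

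XTH9 (AT4G03210) stood at 0.59 and 0.328 CPM in shm1 LC, against 2.95 and 4.51 CPM in glyk1 LC, 9.82 and 10.2 CPM in pglp1 LC and 1.75 to 17 CPM in WT LC. The shm1 LC libraries lay below all WT libraries (log2 difference −4.15, SE 0.85, adjusted p = 0.000561). XTH8 (AT1G11545) stood at 0.246 and 0.0518 CPM in shm1 LC and at 2.07 to 5.87 CPM in WT LC (−4.32, SE 0.79, adjusted p = 0.000192). Without shm1 LC replicate 2 the difference of glyk1 from shm1 was lost for XTH8 (0.0522) and XTH9 (0.0989), and that of XTH9 also without glyk1 LC replicate 2 (0.0627). XTH6 (AT5G65730) fell from 50.8 and 59 CPM in shm1 HC to 3.28 and 1.23 CPM in shm1 LC (−4.58, SE 1.12, adjusted p = 0.00224), and its difference from WT LC did not pass (adjusted p = 0.06). The 4 epidermis markers summed to 80.5 to 88.7 CPM in shm1 LC, 205 to 228 CPM in glyk1 LC, 169 to 185 CPM in pglp1 LC and 303 to 438 CPM in WT LC. The summed mesophyll markers were also lowest in shm1 LC. Their part in these results was not tested.

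XTH28 (first named EXGT-A2) and XTH5 (AT5G13870) were lower than WT in LC in some of the mutants. XTH28 stood at 21.6 and 11.3 CPM in shm1 LC and 12.8 and 11.5 CPM in pglp1 LC, below the 35.7 to 45.1 CPM of WT LC (−1.32, adjusted p = 0.00051, and −1.76, adjusted p = 7.06e-05), and at 24.5 and 30.4 CPM in glyk1 LC. XTH5 stood at 2.73 and 1.42 CPM in shm1 LC and 2.36 and 3.65 CPM in glyk1 LC, below the 5.83 to 7.23 CPM of WT LC (−1.63, adjusted p = 0.000228, and −1.1, adjusted p = 0.00549). The glyk1 call of XTH5 was lost without glyk1 LC replicate 1 (0.113).

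Among low members, XTH25 was opposite in sign between mutants: it fell from HC to LC in shm1 (−2.55, SE 0.88, adjusted p = 0.0183), from its high HC level, and rose in pglp1 (5.85, SE 1.18, adjusted p = 0.000646) and hpr1 (4.26, SE 0.99, adjusted p = 0.0156). The shm1 call was lost without shm1 HC replicate 1 (0.0669) or shm1 LC replicate 2 (0.148), and the hpr1 call without hpr1 HC replicate 1 (0.174) or hpr1 LC replicate 2 (0.105). XTH33 (AT1G10550), which is anchored at the plasma membrane, had 15 counts in pglp1 LC against 2 in WT LC, a ratio of 22.6 (95% counting interval 5.26 to 204), and 86 in glyk1 LC, a ratio of 24.4 (6.54 to 204). It had 0 counts in pglp1 HC, at least 6.54-fold lower than in pglp1 LC. The XTH33 calls of pglp1 and glyk1 against WT were lost without WT LC replicate 1 (0.0772 and 0.0562), among others. XTH15 (AT4G14130, first named XTR7), known from shade-induced elongation, lay at or under 0.54 CPM in all libraries and fell from HC to LC in shm1 (−3.66, SE 0.95, adjusted p = 0.00341). It overlaps AT4G14120 on the opposite strand with 283 of its 1108 windows of 100 bases, and reads of the pair cannot be told apart without strand. XTH16 (AT3G23730) and XTH20 (AT5G48070) were not called in any comparison of the planned set, and XTH17 (AT1G65310) had at most 6 counts in a library.

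After these values were seen, the LC groups of shm1, glyk1 and pglp1 were compared directly. Glyk1 exceeded shm1 in 12 members (21.4% of loci) and lay below it in 3 (17.1%), 15 in all (38.5% of loci). The 3 lower members were XTH11, XTH29 and XTH30. The count was lower without shm1 LC replicate 2, which leaves 1 library in that group, and so was that over all loci. Pglp1 exceeded shm1 in 11 members (24.6% of loci) and lay below it in 1 (29.5%), XTH30, 12 in all (54.1%). Pglp1 and glyk1 differed in 2 members, with none higher in pglp1 (17.7% of loci) and 2 lower (26.5%), XTH28 (−1.18, adjusted p = 0.00455) and XTH32 (−1.97, adjusted p = 0.0174), against 44.3% of loci in all. Without glyk1 LC replicate 2 or pglp1 LC replicate 2 that count was 1, and XTH32 lost its call there (0.0775 and 0.0687) and without pglp1 LC replicate 1 (0.118). XTH18 differed between pglp1 and glyk1 by 0.51 (SE 0.86) and XTH23 by 0.07 (SE 0.63), on the log2 scale. Other members lay apart without a call. XTH24 stood at 3754 to 3763 CPM in glyk1 LC and at 551 to 665 CPM in pglp1 LC. XTH22 was also higher in glyk1 LC, without overlap. XTH9 (2.95 to 4.51 against 9.82 to 10.2 CPM) and XTH29 (2.68 to 2.75 against 7.97 to 9.66 CPM) were lower there. DESeq2, the replicate block and the fit of only these groups called more members. The count of 2 therefore does not show these mutants to be alike.

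Related wall and hormone genes were counted in the same way from HC to LC, and shm1, glyk1 and pglp1 are described in detail. In hpr1, 7 of 14 genes of xyloglucan synthesis and 7 of 15 tested alpha expansins fell, against 6.9% of loci. None of these rose, and the median log2 changes were −0.86 and −1.83. There 1 of 3 exoglycosidases and 2 of 8 brassinosteroid genes fell, and none of 3 touch-inducible genes was called. Whether these hpr1 calls hold with a library left out is not given here. Of all loci, 33.4% fell and 31.9% rose in shm1, 27.5% fell and 27.1% rose in glyk1, and 32.3% fell and 24.3% rose in pglp1, and the counts below are read against these shares. Of 14 genes of xyloglucan synthesis, 10 fell and none rose from HC to LC in shm1, and 9 fell and 3 rose in glyk1 and in pglp1, with median log2 changes of −1.38, −1.09 and −0.89, against −0.05, −0.06 and −0.25 over all loci. The same 3 rose in both: CSLC12 (3.49 in glyk1, 2.25 in pglp1), which makes the glucan backbone, and the xylosyltransferases XXT1 (2.79 and 2.76) and XXT5 (0.76 and 1.15). The lowest log2 fold changes were −4.36 for CSLC8 in shm1, −3.68 for XXT3 in glyk1 and −4.09 for XLT2, which adds galactose, in pglp1. Of the 3 exoglycosidases that trim xyloglucan, all fell in shm1, and XYL1 and BGAL10 fell in glyk1 and pglp1. XYL1 changed by −3.62 in shm1, −2.79 in glyk1 and −3.68 in pglp1, and BGAL10 by −3.32, −1.26 and −3.43, on the log2 scale. AXY8 changed by −4.18 in shm1.

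Of 15 tested alpha expansins, which loosen walls without cutting them, 11 fell and 1 rose in shm1, 10 fell and 2 rose in glyk1, and 9 fell and 1 rose in pglp1, with median log2 changes of −3.7, −1.97 and −2.58. The median over all loci was −0.05, −0.06 and −0.25, and the shares of all loci that fell were 33.4%, 27.5% and 32.3%. EXPA8 changed by −7.57 in shm1, −7.78 in glyk1 and −5.04 in pglp1, and EXPA11 by −7.86 in shm1 and −6.71 in pglp1, on the log2 scale. EXPA12 was higher in all 3 mutants. The 3 other touch-inducible genes on the list, the calmodulin-like CML12 (TCH3) and CML24 (TCH2) and the calmodulin CAM2, all rose in glyk1 (27.1% of loci rose) and in pglp1 (24.3%), and 2 of them in shm1 (31.9%). CML12 rose by 3.29 in shm1, 5.13 in glyk1 and 5.2 in pglp1, on the log2 scale, and none of them was called in WT. Of 8 brassinosteroid genes, 6 fell and 1 rose in shm1, 4 fell and 2 rose in glyk1, and 3 fell and 1 rose in pglp1. The share that fell in pglp1 lies near that of all loci (32.3%), and so does the share that rose in glyk1 (27.1%). BR6OX2, which makes brassinolide and its precursor, changed by −4.6, −3.66 and −3.02, and DWF4, another enzyme of the synthesis, by −3.17, −2.01 and −2.15.

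The bases before the annotated gene starts (RefSeq, TAIR10.1) are shown for 4 members that rose and for the pair of hydrolytic members that fell, since the results above turn on them. Each is a 150-base window on the gene's strand, 5′ to 3′, with matches to TTGAC (the W box core) or CGCGTT on either strand in capitals.
XTH18, chr4:14827212-14827361, minus strand: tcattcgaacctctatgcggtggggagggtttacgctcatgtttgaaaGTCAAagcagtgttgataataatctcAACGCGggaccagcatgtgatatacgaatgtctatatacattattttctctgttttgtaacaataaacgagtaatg
XTH22, chr5:23308681-23308830, minus strand: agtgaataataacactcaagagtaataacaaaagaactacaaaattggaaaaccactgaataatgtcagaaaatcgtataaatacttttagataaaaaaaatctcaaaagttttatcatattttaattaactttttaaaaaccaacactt
XTH23, chr4:13128244-13128393, plus strand: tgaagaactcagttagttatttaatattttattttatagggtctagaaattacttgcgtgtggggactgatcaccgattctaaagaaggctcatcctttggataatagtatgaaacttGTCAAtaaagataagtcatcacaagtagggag
XTH24, chr4:14820596-14820745, minus strand: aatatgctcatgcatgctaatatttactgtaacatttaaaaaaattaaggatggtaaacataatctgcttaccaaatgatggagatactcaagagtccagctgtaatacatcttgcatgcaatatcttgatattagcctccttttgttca
XTH31, chr3:16448845-16448994, minus strand: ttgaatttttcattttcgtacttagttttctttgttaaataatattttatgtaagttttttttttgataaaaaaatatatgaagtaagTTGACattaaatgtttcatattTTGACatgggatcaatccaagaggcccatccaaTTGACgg
XTH32, chr2:15474829-15474978, minus strand: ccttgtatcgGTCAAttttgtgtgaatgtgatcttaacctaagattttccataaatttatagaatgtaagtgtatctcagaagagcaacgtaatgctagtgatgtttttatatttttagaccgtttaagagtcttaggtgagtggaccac
Over 250 bases before the start, TTGAC was found in 15 of 33 members and in 44.9% of 27443 promoters. CGCGTT was found in XTH13, XTH18 and XTH20, 3 of 33 members, and in 2.59% of promoters. The G box CACGTG was found in no member and in 6.49% of promoters, and the mitochondrial dysfunction motif in no member and in 1.2%. XTH31 has 3 matches in the window printed. A match describes these letters only.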

How the data were processed

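Leaf RNA libraries were prepared with the TruSeq RNA v2 kit, which does not keep strand, and sequenced as single reads or as read pairs, per the labels' protocols; which library had which mode is not known. Base calls were made with CASAVA 1.8, loci were those of TAIR9 or TAIR10 and edgeR was used, per the submitters' processing notes. For the aligner, the name was not given in the sources used here. For every locus, the deposited table gives counts and RPKM in each library, per the file headers. Counts were the input of all tests, and the authors' RPKM served to compare levels between members. The members and gene lists were chosen with earlier results of these data known. All members were accounted for, and those with an adjusted p under 0.05 in any of 17 comparisons were named with values. A gene name came from RefSeq (TAIR10.1); 2 genes listed under xyloglucan hydrolysis had no such name there and were dropped.

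Groups came from sample titles. In WT LC replicate 3, 4920 rows (19.16% of 25680 loci) lie in blocks known from an earlier account to carry counts displaced from nearby rows. They were checked in windows of 21 loci at shifts of up to 10 rows. Displaced windows made up 4.762% (AT1G24620 to AT1G25098), 66.667% (AT2G40960 to AT2G42040) and 77.011% (AT3G06660 to AT3G66658), and 0% outside the blocks. All rows of the blocks were treated as missing, whatever the check found. Tests used edgeR 4.0.16 in R 4.3.3 (TMM factors, filterByExpr, 10 group means, robust quasi-likelihood F tests over 22 libraries, or 21 for displaced loci), with Benjamini-Hochberg adjustment over 20433 loci. An SE beside a fold change is on the log2 scale. DESeq2 1.42.0 was an alternative; the others were other size factors, no low-count filter, a replicate block, rows as deposited, each library left out, and fitting only the groups compared. The 3 direct comparisons of mutants in LC were added after the values were seen. Deviations of same-numbered libraries from their group means had a median correlation of −0.06 (−0.58 to 0.46). The labels do not say that the numbers pair samples, and this median cannot exclude shared batches in some groups. For 0 counts a fold is a bound from 3 counts over the group, and for 1 to 3 counts a ratio with a 95% interval; both cover counting error only. Coordinates are 1-based.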

Additional observations from a re-analysis of the deposited data

Results flagged for a closer look

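For the members below, the response to LC in a mutant differed from the response in WT by the interaction test of edgeR (adjusted p under 0.05). Values are the mutant's log2 fold change of LC over HC minus that of WT. No member met this in hpr1.

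In shm1 the difference was positive for XTH18 (8.32), XTH29 (5.38), XTH10 (5.13), XTH23 (4.77), XTH30 (4.55), XTH24 (4.28) and XTH11 (2.25). It was negative for XTH31 (−7.65), XTH9 (−4.97), XTH7 (−4.76), XTH8 (−4.75), XTH15 (−4.50), XTH32 (−4.47), XTH6 (−3.88), XTH4 (−3.39), XTH25 (−3.27), XTH22 (−1.77), XTH5 (−1.57) and XTH28 (−1.32). In shm1 the calls of XTH5, XTH6, XTH10, XTH11, XTH22, XTH24, XTH25 and XTH28 were lost on leaving out at least 1 library.

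In glyk1 the difference was positive for XTH18 (14.19), XTH23 (12.99), XTH24 (8.01), XTH19 (6.22), XTH22 (6.11), XTH29 (3.94) and XTH30 (3.21), and negative for XTH31 (−8.78) and XTH32 (−2.10). The calls of XTH29 (adjusted p = 0.262 without WT HC replicate 1, 0.064 without glyk1 HC replicate 2) and XTH32 (0.0787 without glyk1 HC replicate 1, 0.0866 without glyk1 LC replicate 1) were lost on leaving out a library.

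In pglp1 the difference was positive for XTH23 (11.42), XTH18 (11.13), XTH29 (6.68), XTH24 (6.19), XTH25 (5.12), XTH30 (4.09), XTH11 (3.66), XTH22 (2.12) and XTH27 (1.87). It was negative for XTH31 (−13.56), XTH7 (−3.61), XTH32 (−3.19), XTH28 (−2.19) and XTH5 (−1.14). The fitted values of XTH31, XTH29 and XTH11 depend on the prior count. Those of XTH18 in shm1, glyk1 and pglp1 rest on 5 counts in WT LC. XTH31 had 0 counts in pglp1 LC. XTH29 had 1 count in pglp1 HC, and its LC to HC ratio was 241 (95% counting interval 42.7 to 9557). XTH11 had 3 counts in pglp1 HC, with a ratio of 9.59 (2.88 to 50.1). The calls of XTH5, XTH7 and XTH27 were lost on leaving out at least 1 library.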

How the results depend on the processing

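None of 193 single-gene calls changed sign in any refit (all alternatives, leave-one-out included). Each call was paired with each refit of its comparison, 2237 pairs that share fits and libraries. In 259 of these pairs the call moved past 0.05, of which 183 left out a library and 35 fitted only the groups compared. The cause was not tested. The counts of called members that moved by over 1.5 times were as follows. Leaving out a library gave 0 to 1 for WT LC against HC (1 in the full set), 0 to 8 for hpr1 LC against HC, 2 to 6 for hpr1 against WT in LC, 0 to 1 for the difference of the hpr1 and WT responses, 9 to 14 for glyk1 against shm1 in LC, and 1 to 2 for pglp1 against glyk1 in LC. Fitting only the groups compared gave 0 for WT LC against HC, 6 for hpr1 LC against HC, 2 for pglp1 against WT in HC, 0 for hpr1 against WT in LC, 11 for glyk1 against WT in LC and 9 for pglp1 against glyk1 in LC. In the comparisons with 0, no locus at all passed in that fit. The DESeq2 Wald test gave 2 for shm1, glyk1 and pglp1 against WT in HC, 3 for the hpr1 response difference and 6 for pglp1 against glyk1 in LC. Of 20286 loci, that test called 151, 309, 1988, 348 and 9169 in these comparisons, in the same order. With all rows as deposited, hpr1 against WT in LC had 3. With the replicate block it had 3 as well, and pglp1 against glyk1 in LC had 5. The labels give same-numbered libraries nothing in common but a number. Their median correlation of deviations was −0.06 over 91 pairs, against 0.02 over 126 others, which cannot exclude pairing in some groups. Groups of 2 libraries and totals from 5.91 M counts (M for 1e6) limit what can be seen for members near 0.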
